A study of Mus musculus with 6 samples.

Results

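The ionotropic receptors for GABA, glycine and glutamate were examined in the embryonic mouse brain through 30 autosomal genes that encode their subunits. The list held 11 GABA-A genes (Gabra2, Gabra4, Gabra5, Gabra6, Gabrb1, Gabrb2, Gabrg1, Gabrg3, Gabrd, Gabrr1 and Gabrr2) and 3 glycine receptor genes (Glra1, Glra3 and Glrb). It also held 3 AMPA genes (Gria1, Gria2 and Gria4), 7 NMDA genes (Grin1, Grin2a, Grin2b, Grin2c, Grin2d, Grin3a and Grin3b), 5 kainate genes (Grik1 to Grik5) and the delta gene Grid1. Of these, 26 genes were matched by symbol to 29 of the 23485 RefSeq transcript IDs. Gabra4, Gabra6, Glra1 and Gria1 matched no ID and were not analysed here.

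Whole brains came from wild-type C57BL/6 embryos at E15.5 (days of gestation), and an embryo with testicular cords in its gonads was taken as male and one without them as female. There were 3 female and 3 male samples, the labels name no treatment, and RNA of several embryos was combined into each sample. Stranded libraries of total RNA were sequenced, and the tables hold counts per transcript ID. Where 3 values are given for a sex, they stand in the order of samples 1, 2 and 3. P-values measure the spread between these pools only.

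Ionotropic receptors are ion channels that open when a transmitter binds, and each is assembled from several subunits. GABA-A and glycine receptors pass chloride, while AMPA, kainate and NMDA receptors pass cations and are opened by glutamate. Subunit composition changes as the brain matures: Gabra2, Gabra5, Gria4, Grin2b, Grin2d and Grin3a are known for high expression in embryonic or early postnatal brain, while Gabra6, Gabrb2, Gabrd, Glra1, Grin2a, Grin2c and Grin3b are known for the mature brain or spinal cord. These 6 and 7 genes formed the embryonic and mature lists used below, and the other 17 genes were in neither list.

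Promoter windows are shown for Grik3, the most abundant of the genes with 1 RefSeq accession described below, for Gabrr2, among the least abundant, and for Grin2d and Grin2c, which encode an embryonic and a mature NMDA subunit. Each window is the 250 bases before the RefSeq start site in assembly GRCm38.p6, written 5′ to 3′ on the gene's strand, with every CG dinucleotide in capitals.
Grik3, chr4:125490446-125490695, plus strand: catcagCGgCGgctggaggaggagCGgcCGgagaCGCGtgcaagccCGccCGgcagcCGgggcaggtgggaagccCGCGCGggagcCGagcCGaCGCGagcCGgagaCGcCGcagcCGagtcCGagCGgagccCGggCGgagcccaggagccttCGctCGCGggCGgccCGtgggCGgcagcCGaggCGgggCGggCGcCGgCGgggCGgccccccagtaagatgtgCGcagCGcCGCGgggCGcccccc
Gabrr2, chr4:33062862-33063111, plus strand: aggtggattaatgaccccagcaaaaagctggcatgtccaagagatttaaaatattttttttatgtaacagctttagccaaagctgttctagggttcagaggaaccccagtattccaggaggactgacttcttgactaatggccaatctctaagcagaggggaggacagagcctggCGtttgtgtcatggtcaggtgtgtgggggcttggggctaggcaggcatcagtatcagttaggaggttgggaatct
Grin2d, chr7:45866682-45866931, minus strand: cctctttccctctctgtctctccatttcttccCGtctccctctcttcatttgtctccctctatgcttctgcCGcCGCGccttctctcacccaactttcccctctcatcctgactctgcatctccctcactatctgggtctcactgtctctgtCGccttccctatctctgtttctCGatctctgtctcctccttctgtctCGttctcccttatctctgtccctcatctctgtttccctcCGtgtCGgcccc
Grin2c, chr11:115267244-115267493, minus strand: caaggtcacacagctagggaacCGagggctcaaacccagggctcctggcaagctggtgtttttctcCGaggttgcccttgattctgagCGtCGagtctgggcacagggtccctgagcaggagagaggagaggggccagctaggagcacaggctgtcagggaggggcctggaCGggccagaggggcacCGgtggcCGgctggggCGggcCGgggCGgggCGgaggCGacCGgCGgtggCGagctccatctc

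The Grik3 window held 42 CG, and 0.865% of the 32851 promoter windows in the table held at least as many. Gabrr2 held 1 CG, and 92.1% of the windows held at least as many. Grin2d held 9 (40.3% of windows held at least as many) and Grin2c held 15 (27.3%), and Grin2c had the lower RNA level of the pair. Of the 30 genes, 22 had a window in the table, with 25 windows in all, and 18 of these exceeded the median of 6 CG over all windows. Gabrg1 had 1 CG. The motif CG is its own reverse complement, so the count covers both strands. The count is a description of the letters only. Gabrd, Glra1, Gria1, Grid1, Grik1, Grin2a, Grin2b and Grin3a had no entry.

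Totals ranged from 4908565 to 10294443 counts per sample, so a count of 0 allowed up to 0.291 to 0.611 CPM (counts scaled to the library size), a limit of 3 counts that covers counting error only. Xist ranged from 1021 to 1428 CPM in female samples and from 0.414 to 1.07 CPM in male samples, while Ddx3y and Kdm5d, which lie on the Y chromosome, had at most 1 count in any female sample, so all 6 samples matched their labelled sex. Marker lists were summed in each sample. Neuronal markers (5 of 6 genes matched) summed to 2293 to 2642 CPM in females and 2483 to 3265 CPM in males, and progenitor markers (5 of 6) to 2451 to 2775 and 2513 to 2874 CPM. The glial lineage list (3 of 4) gave 224 to 281 and 240 to 285 CPM, and the choroid plexus list (2 of 3) 425 to 513 and 534 to 702 CPM, with no overlap between the sexes. Markers of tissue outside the brain were also present. Skeletal muscle (4 of 4) summed to 4259 to 4981 CPM in females and 3010 to 4770 CPM in males, surface epithelium (4 of 4) to 858 to 949 and 753 to 1494 CPM, cartilage (4 of 4) to 95.7 to 186 and 54.5 to 132 CPM, and erythroid cells (3 of 4) to 630 to 802 and 545 to 987 CPM. Myh3, the embryonic myosin heavy chain of skeletal muscle, ranged from 1906 to 2793 CPM, against 1229 to 1974 CPM for the neuronal tubulin Tubb3. Eomes, Alas2 and Acan had no more than 3 counts in any sample. Male sample 1 stood apart from the others: it had the lowest muscle (3010 CPM) and cartilage (54.5 CPM) sums. It also had the highest epithelium (1494 CPM), neuron (3265 CPM), progenitor (2874 CPM), glial lineage (285 CPM) and choroid plexus (702 CPM) sums. Chi-square per degree of freedom was 34.4 and 44.9 between it and the other male samples, against 9.03 to 13.8 for the other pairs of the same sex. The part of this RNA in the values below was not tested. In bulk RNA, fewer cells of a type and less RNA per cell cannot be told apart.

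Levels of different genes were compared as CPM divided by transcript length (CPM per kb), with the CPM of a gene's IDs summed. The number of curated RefSeq mRNA accessions of a gene went with its values. Over all mRNA IDs, the median level was 6.12 CPM per kb for the 11227 IDs of genes with 1 accession and 0.133 CPM per kb for the 8042 IDs of genes with 2 or more. Among receptor subunits, the 13 IDs of genes with 1 accession had a median of 2.07 CPM per kb and the 16 IDs of genes with 2 or more had 0.227 CPM per kb. How reads shared between transcripts of a gene were counted is not stated in the sources used here, and its part in these values was not tested. The order of levels is therefore given for the 13 genes with 1 accession, and the other genes are given by their values.

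**Figure D1:**
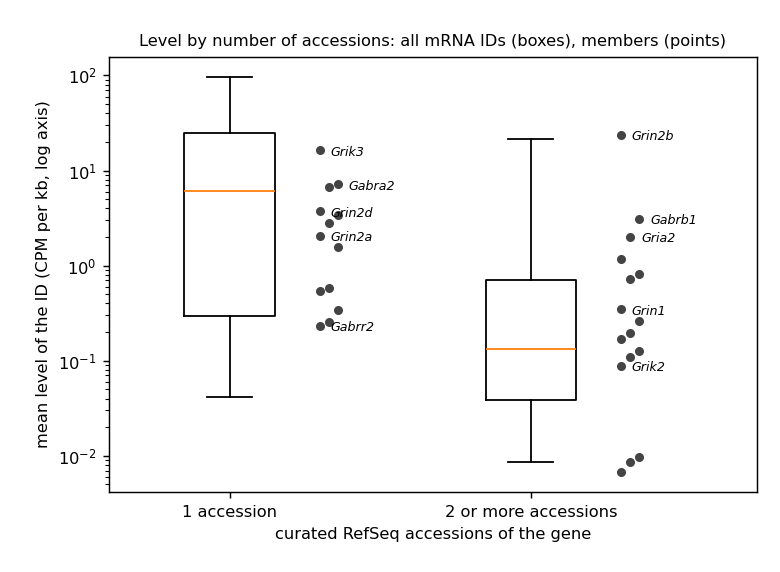
Mean level over 6 samples (CPM per kb of transcript, log axis) by the number of curated RefSeq accessions of the gene. Boxes show the quartiles and median over all mRNA IDs, whiskers the 5th and 95th percentiles, and points the receptor subunit IDs (jittered sideways, some named); the medians of the boxes are 6.12 and 0.133 CPM per kb.

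Grik3 (NM_001081097; NCBIM37 chromosome 4, 125167944 to 125391417, plus strand), a low-affinity kainate receptor subunit, had the highest level of the genes with 1 accession. Its level was 18.6, 15.7 and 18.1 CPM per kb in the female samples and, for the male samples, 16.5, 14.1 and 15.3 CPM per kb. Its mean of 16.4 CPM per kb lay above 66.0% of all IDs of genes with 1 accession. Every sample exceeded the highest value of the next gene, Gabra2. Grik4, a high-affinity kainate subunit that needs a low-affinity partner to form a working channel, ranged from 2.07 to 3.16 CPM per kb. The other kainate genes had 2 or 3 accessions and few counts. Grik1, a low-affinity subunit, had 5 to 24 counts per sample for NM_001346964 and 0 to 9 for NM_146072. Grik2, another low-affinity subunit, had 0 to 5 counts and Grik5, a high-affinity subunit, had 2 counts in male sample 3 and 0 in the other samples.

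Of the GABA-A genes, Gabra2 (NM_008066; chromosome 5, 71352296 to 71487088, minus strand) was the most abundant with 1 accession. This alpha subunit had female values of 9.08, 8.02 and 6.96 and male values of 5.93, 7.67 and 5.44 CPM per kb. The highest male sample lay between the female values. Gabrg1, a gamma subunit, had female values of 2.62, 3.73 and 3.79 and male values of 3.95, 3.40 and 3.00 CPM per kb. Gabrb1, a beta subunit with 2 accessions, ranged from 2.81 to 3.56 CPM per kb. These 3 genes and Gabra4 lie within 1387.3 kb of chromosome 5 (71142286 to 72529628).

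Of the other GABA-A genes, Gabrg3, Gabrd, Gabrr1 and Gabrr2, with 1 accession each, were at lower levels than Gabra2 and Gabrg1. Gabra5 and Gabrb2 have more accessions and are given by their values only. Gabrg3, a gamma subunit, had female values of 65, 13 and 62 and male values of 44, 30 and 56 counts, or 0.266 to 1.08 CPM per kb. Both the highest and the lowest of its levels were in females. Its neighbour on chromosome 7, the alpha subunit Gabra5, has 3 accessions and had 1 count in all 6 samples together. Gabrb2, the beta subunit of the most common GABA-A receptor of the mature brain, has 5 accessions and had 5 to 14 counts per sample. Gabrd, the delta subunit of receptors outside the synapse, had female values of 0, 3 and 4 and male values of 8, 4 and 5 counts. The rho subunits Gabrr1 and Gabrr2, best known from the retina, had 2 to 8 and 1 to 5 counts per sample.

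Of the glycine receptor genes, 2 were analysed. Glra3, a ligand-binding alpha subunit with 2 accessions, had female values of 6, 4 and 15 and male values of 22, 10 and 21 counts. Glrb, the beta subunit that anchors the receptor at synapses, has 8 accessions and had 0 to 5 counts. For AMPA receptors, Gria2 (NM_001039195; chromosome 3, 80488858 to 80606713, minus strand) encodes the subunit whose edited form keeps calcium out of the channel. Gria2 has 8 accessions, of which 1 was counted, and it had female values of 3.68, 3.19 and 1.31 and male values of 0.476, 1.89 and 1.496 CPM per kb. Relative to its mean, the spread over its samples was the widest of the genes above 1 CPM per kb. Gria4 had 3 IDs, and NM_001113181 (23 to 77 counts per sample) was above NM_001113180 (1 to 19) and NM_019691 (3 to 6) in every sample.

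**Figure D2:**
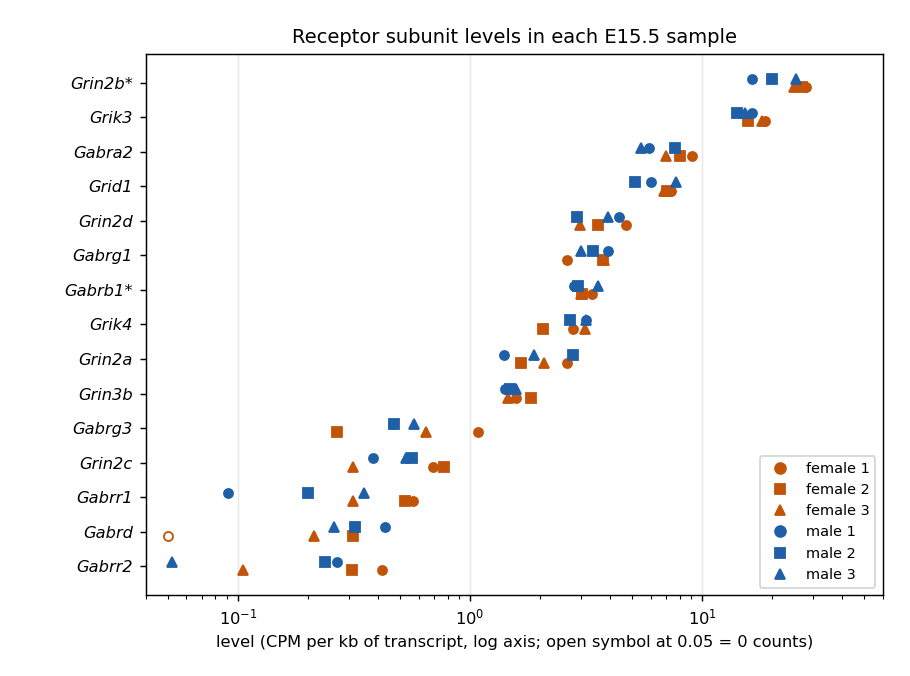
Level of 15 receptor subunit genes in each sample (CPM per kb of transcript, log axis), ordered by mean; females in orange, males in blue, symbols mark samples 1 to 3, and asterisks mark Grin2b and Gabrb1, which have 2 accessions (an open symbol at the left stands for 0 counts). All samples of Grik3 lie above all samples of Gabra2, and most neighbouring genes overlap.

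NMDA receptors contain the obligatory subunit encoded by Grin1 together with GluN2 or GluN3 subunits. Grin1 has 8 accessions, of which NM_008169 was counted, and had female values of 11, 5 and 10 and male values of 7, 14 and 22 counts. Grin2b (NM_008171; chromosome 6, 135679844 to 136123529, minus strand), the main embryonic GluN2 subunit, has 2 accessions and had female values of 28.1, 26.9 and 24.98 and male values of 16.4, 20.1 and 25.4 CPM per kb. Grin1 was listed below Grin2b in every sample, and with its number of accessions it was not ranked against the other genes. Of the GluN3 subunits, which lower calcium entry, Grin3b ranged from 1.42 to 1.83 CPM per kb and Grin3a, with 2 accessions, had 0 to 2 counts per sample.

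Within the GluN2 group, Grin2b took 72.7% to 82.3% of the summed level in each sample. Grin2d, the other embryonic GluN2 gene, took 9.79% to 19.4%, Grin2a took 5.05% to 10.6% and Grin2c 1.03% to 2.36%. The order Grin2b, Grin2d, Grin2a and Grin2c held in all 6 samples. Among the GluN2 genes with 1 accession alone, Grin2d took 46.4% to 71.2%, Grin2a 22.7% to 44.6% and Grin2c 5.84% to 12.9%. Grin2d (NM_008172; chromosome 7, 53087253 to 53126298, minus strand) had female values of 4.68, 3.57 and 2.97 and male values of 4.38, 2.90 and 3.94 CPM per kb. Grin2a (NM_008170; chromosome 16, 9577803 to 9995014, minus strand) had female values of 2.62, 1.66 and 2.08 and male values of 1.40, 2.79 and 1.89 CPM per kb. In male sample 2 they were closest, and Grin2d exceeded Grin2a in each sample. Grin2c ranged from 15 to 26 counts per sample.

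**Figure D3:**
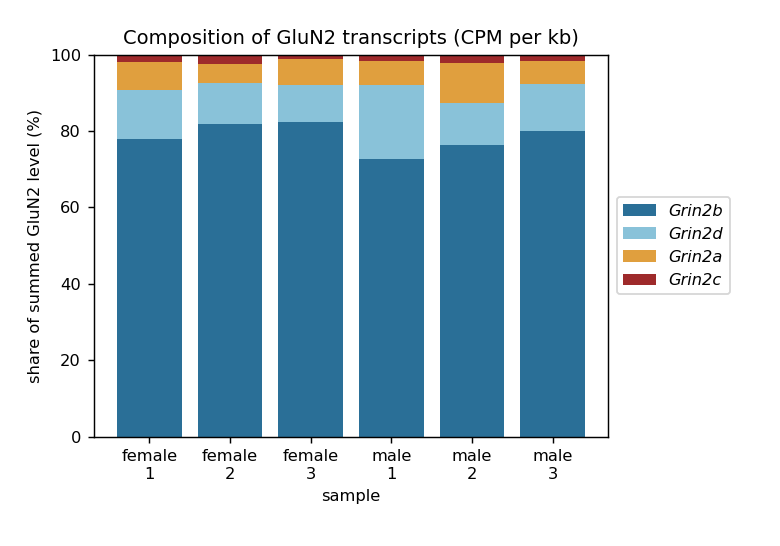
Composition of GluN2 transcripts in each sample: each bar stacks the shares (%) of Grin2b, Grin2d, Grin2a and Grin2c in their summed CPM per kb. Grin2b takes 72.7% to 82.3% of every bar, and the lowest share is in male sample 1.

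Grid1, the delta receptor subunit GluD1 that bridges synapses through cerebellins and is not opened by glutamate alone, had female values of 7.34, 7.09 and 6.87 and male values of 5.999, 5.12 and 7.74 CPM per kb. In the order of the 13 genes with 1 accession, Grik3 (mean 16.4 CPM per kb) was followed by Gabra2 (7.18), Grid1 (6.69), Grin2d (3.74), Gabrg1 (3.41), Grik4 (2.83), Grin2a (2.07), Grin3b (1.56), Gabrg3 (0.584), Grin2c (0.543), Gabrr1 (0.341), Gabrd (0.256) and Gabrr2 (0.232). Ranges over the 6 samples did not overlap between the neighbours Grik3 and Gabra2, Grid1 and Grin2d, and Grin3b and Gabrg3. All other neighbours in this order overlapped. The order used the longest transcript of each gene. With the median transcript length, Grin3b was at 3.13 CPM per kb, above Grin2a at 2.17, Gabrg3 was at 0.992, and Gabrr2 (0.354) lay above Gabrr1 (0.344) and Gabrd (0.256).

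The embryonic list summed to a higher level than the mature list in every sample. The ratio of the summed levels had female values of 8.49, 8.19 and 8.41 and male values of 7.37, 5.93 and 8.11, with 6 embryonic and 5 mature genes. Grin2b alone gave 58.2% to 69.5% of the embryonic sum. With genes of 1 accession alone, which leaves Gabra2 and Grin2d against Gabrd, Grin2a, Grin2c and Grin3b, the ratio was 2.02 to 2.80. The lists were not uniform. The embryonic genes Gabra5 (3 accessions) and Grin3a (2 accessions) had at most 2 counts per sample. The mature genes Grin2a and Grin3b, with 1 accession each, had 40 to 98 and 30 to 52 counts. As their numbers of accessions differ, these genes were not ranked against each other. Grin2a or Grin3b was the largest part of the mature sum in each sample.

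Embryonic and mature members of the same subfamily were compared between the sexes as ratios of levels, with 0.5 counts added. Grin2b to Grin2a had female values of 10.7, 16.01 and 11.98 and male values of 11.7, 7.16 and 13.4, a log2 difference (male minus female) of -0.29 with an exact permutation p of 0.5 (two-sided, n = 3 per sex, Benjamini-Hochberg 0.7 over 2 ratios). Grin2d to Grin2c had female values of 6.60, 4.51 and 9.22 and male values of 11.2, 5.04 and 7.30, with a log2 difference of 0.20 and an exact permutation p of 0.7 (two-sided, adjusted 0.7). The sexes overlapped in both ratios, and with 3 samples against 3 the smallest p possible was 0.1. The difference in Grin2b to Grin2a ran from -0.47 without male sample 3 to -0.02 without male sample 2. Without female sample 2 or male sample 1 the difference in Grin2d to Grin2c turned to -0.07 and -0.10.

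Sex was compared by edgeR's quasi-likelihood test over the 13374 IDs that reached 10 counts in any sample. This filter kept 19 of the 29 receptor subunit IDs and left out 10: those of Gabra5, Gabrd, Gabrr1, Gabrr2, Glrb, Grik2, Grik5 and Grin3a, Gria4 NM_019691 and Grik1 NM_146072. No tested receptor subunit passed an adjusted p under 0.05, where 0.0299% of all tested IDs (4 of 13374) did, and adjusted p-values ran from 0.390 to 0.989 (edgeR, Benjamini-Hochberg). DESeq2 gave an adjusted p to 3 of the 19 (Gria2 was not among them) and called 0 of these, against 1.55% of the 6114 IDs with one. At an unadjusted p under 0.05, 2 of 19 were lower in males, against 4.82% of all tested IDs, and 0 of 19 were higher in males, against 6.68%. In 0 of 19 did the CPM of the sexes separate without overlap, against 17.1% of all tested IDs. Fold changes were below 0 for 13 and above 0 for 6, against 6822 and 6552 of all 13374 tested IDs. The median log2 fold change (male over female) was -0.17, against -0.01 over all tested IDs.

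**Figure D4:**
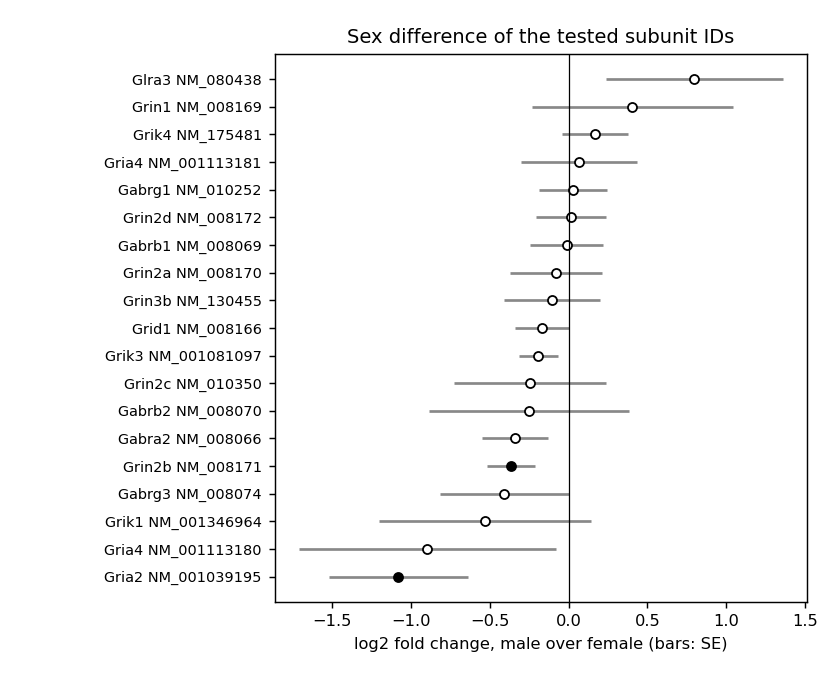
Log2 fold change, male over female, of the 19 tested receptor subunit IDs with its standard error (SE), ordered by size; filled points had an unadjusted p under 0.05. The points run from -1.08 for Gria2 to 0.80 for Glra3, and 13 lie below 0, against 6822 of all 13374 tested IDs.

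The IDs with an unadjusted p under 0.05 belonged to Gria2 and Grin2b. Gria2 had female values of 25.6, 22.2 and 9.09 and male values of 3.31, 13.1 and 10.4 CPM. Males 2 and 3 lay above female 3, so the groups overlapped. The means were 19.0 CPM ± 8.71 (SD, n = 3) for females and 8.96 CPM ± 5.08 (SD, n = 3) for males, and the log2 fold change was -1.08 (SE 0.44, edgeR p 0.0289, adjusted p 0.390). It was -0.67 without male sample 1 and ran from -1.43 to -0.67 over the alternatives. Gria2 was called in 2 of the 14 alternative fits that gave it an adjusted p, which ranged from 0.00774 to 0.815. These were the edgeR fit without the filter on low counts (adjusted p 0.00815), which called 1.18% of all 23485 IDs, and DESeq2 with a factor for unwanted variation (adjusted p 0.00774), which called 3.88% of 8966.

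Grin2b had female values of 210.7, 201 and 187 and male values of 122.7, 150 and 190 CPM. Male 3 lay above female 3, and male 1 was the lowest sample. The means were 199.5 CPM ± 11.9 (SD, n = 3) for females and 154.5 CPM ± 34.0 (SD, n = 3) for males, and the log2 fold change was -0.37 (SE 0.15, edgeR p 0.0316, adjusted p 0.395, 0.0623 to 0.809 over the alternatives). It was -0.23 without male sample 1, -0.22 with a trend with transcript length removed, and ran from -0.54 to -0.22 over the alternatives. Gria2 and Grin2b are both genes with 2 or more accessions, and among genes with 1 accession 0 of 10 tested receptor subunits had an unadjusted p under 0.05, against 13.8% of all 8310 tested mRNA IDs of such genes.

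Male sample 1 was the lowest of the 6 samples in 8 of 19 tested receptor subunit IDs, against 3379 of all 13374. By accessions this was 2 of 10 for genes with 1 and 6 of 9 for genes with 2 or more, against 17.7% and 32.4% of all tested mRNA IDs. Male sample 1 also had the most IDs with no count, 6743 against 4120 to 6280 in the other samples. Without male sample 1, 0 of 19 receptor subunit IDs had an unadjusted p under 0.05, against 9.49% of all IDs, and without female sample 1, 0 of 19, against 5.73%. Of the matched marker genes, 2 of 4 for cartilage and 1 of 4 for muscle were lower in males at an unadjusted p under 0.05, against 4.82% of all tested IDs. Those higher in males were 1 of 4 for epithelium, 1 of 2 for choroid plexus, 1 of 5 for neurons and 1 of 5 for progenitors, against 6.68%. These totals include Acan (cartilage) and Eomes (progenitors), which had too few counts to be tested. Choroid plexus sums were higher in all male samples. The part of these markers in the sex differences was not tested.

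**Figure D5:**
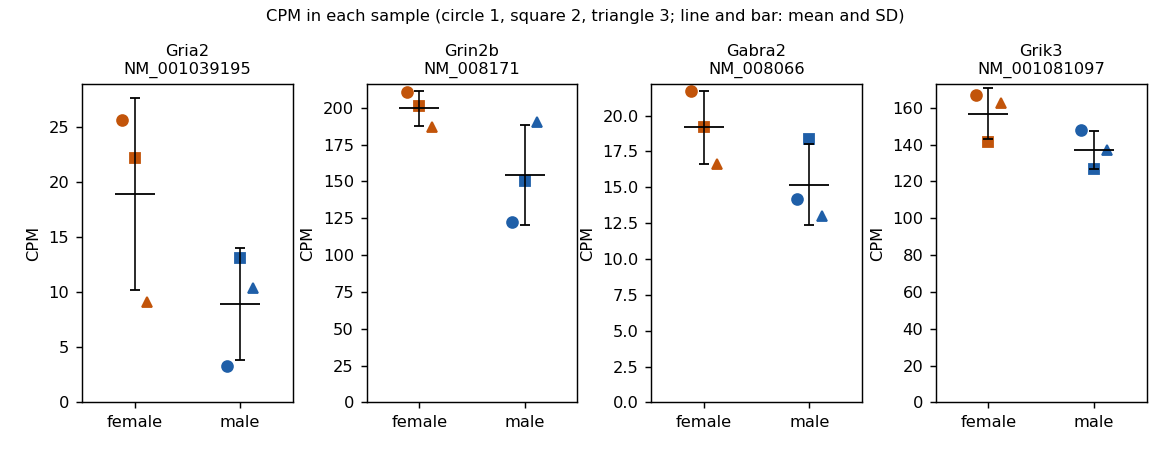
CPM of Gria2, Grin2b, Gabra2 and Grik3 in each sample (circle sample 1, square sample 2, triangle sample 3), with the mean and SD of 3 samples per sex and axes from 0. In all 4 panels the male mean lies below the female mean and the groups overlap.

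For the abundant genes with 1 accession, the intervals bound the difference between the sexes. Grik3 had female values of 166.7, 141 and 163 and male values of 147.7, 127 and 137 CPM, with a log2 fold change of -0.19 (95% interval -0.46 to 0.08, edgeR adjusted p 0.557). It was 0.01 once a trend with transcript length was removed, and in CPM of library totals all male samples lay below all female samples. Grid1 had a log2 fold change of -0.17 (-0.54 to 0.20) and Gabra2 of -0.34 (-0.79 to 0.11). Gabrg1 had 0.03 (-0.44 to 0.49), Grik4 0.17 (-0.28 to 0.61), Grin2d 0.01 (-0.47 to 0.49), Grin2a -0.08 (-0.71 to 0.55) and Grin3b -0.11 (-0.76 to 0.55). All of these intervals included 0, and that of Grik3 was the narrowest among the 19. The sign for Grin2a turned in 2 and that for Grin2d in 6 of 15 alternative fits.

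The remaining tested IDs also had intervals that included 0. Gabrb1 had a log2 fold change of -0.01 (-0.52 to 0.49), Gabrg3 of -0.41 (-1.30 to 0.48) and Gabrb2 of -0.25 (-1.62 to 1.12). Glra3 had the largest positive value, 0.80 (-0.42 to 2.01), with female values of 0.972, 0.799 and 1.53 and male values of 2.28, 1.53 and 2.102 CPM. Female 3 and male 2 were level on this scale, and in CPM of library totals the sexes of Glra3 did not overlap. Gria4 had -0.90 (-2.66 to 0.87) for NM_001113180 and 0.07 (-0.73 to 0.86) for NM_001113181. Grin1 had 0.40 (-0.98 to 1.79), Grin2c -0.25 (-1.28 to 0.79) and Grik1 NM_001346964 -0.53 (-1.98 to 0.92). Of the families, the median log2 fold change was -0.25 over 5 GABA-A IDs, -0.09 over 6 NMDA IDs, -0.19 over 3 kainate IDs and -0.90 over 3 AMPA IDs.

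Other genes of the same signalling were followed through a list of 53, of which 48 matched 59 IDs and 42 IDs were tested. None passed an adjusted p under 0.05, while 1 higher and 2 lower in males had an unadjusted p under 0.05 in edgeR, or 3 of 42 against 11.5% of all tested IDs. The list covered transmitter synthesis and loading (9 tested IDs, 1 higher and 1 lower), uptake and chloride transport (8, 0 and 0), metabotropic receptors (4, 0 and 0), auxiliary subunits (8, 0 and 0) and scaffolds (13, 0 and 1). The median log2 fold change was 0.05.

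Slc17a7, a vesicular glutamate transporter, had female values of 10.5, 10.4 and 10.3 and male values of 19.4, 13.1 and 12.6 CPM (log2 fold change 0.53, SE 0.23, edgeR p 0.0374, adjusted p 0.404). The groups did not overlap. Gad2, which makes GABA, had female values of 129, 140.2 and 128 and male values of 94.7, 119 and 112 CPM (-0.29, SE 0.13, edgeR p 0.0458, adjusted p 0.430), also without overlap. Shank1, a scaffold of excitatory synapses, had female values of 227, 149 and 160.0 and male values of 134, 90.2 and 156 CPM (-0.49, SE 0.20, edgeR p 0.0290, adjusted p 0.390), with the highest male above the lowest female.

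Of the other companion genes, higher values in males were those of the vesicular GABA transporter Slc32a1 (log2 fold change 0.41, edgeR p 0.0544), the scaffold Pick1 (1.08, p 0.154) and the AMPA auxiliary subunit Cacng8 (0.32, p 0.283). Lower values in males were those of the scaffold Homer1 (-0.62, p 0.0627) and the AMPA auxiliary subunit Cacng3 (-0.37, p 0.194). None of these 5 had an unadjusted p under 0.05.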

How the data were processed

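RNA-seq counts of 3 female and 3 male E15.5 whole-brain samples were used. According to the submitters' processing notes and the study's methods, the authors trimmed reads with Trimmomatic 0.32, aligned them to mm9 with TopHat2 2.1.1, assembled transcripts with Cufflinks 2.2.1 and counted with featureCounts 1.5.1. The deposited values are raw counts per RefSeq transcript ID. The handling of multimapping, shared and antisense reads is not stated in the sources used here.

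Symbols and the number of curated mRNA accessions came from a RefSeq gene table, and position and length (the longest transcript) from GENCODE for NCBIM37 (mm9). Promoter windows came from a RefSeq table of GRCm38.p6, matched by symbol. Counts were scaled with TMM factors in edgeR 4.0.16 (R 4.3.3) and tested with its quasi-likelihood F test, male against female, with Benjamini-Hochberg adjustment over all IDs that reached 10 counts in any sample. The 95% intervals come from the same fit. Ratios between genes used an exact two-sided permutation test. DESeq2 1.42.0 and Python 3.11.15 (pandas 2.3.3, scipy 1.17.1, matplotlib 3.10.9) were also used, and the fit was tested on simulated data. Within each sex, chi-square per degree of freedom between pairs of samples was 9.03 to 44.9 (the 2 highest values with male sample 1), above sampling noise, and all were kept as separate samples.

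All 30 receptor genes are named, and of the companion genes the 5 per direction with the smallest p, except that some are not reported here. Members, companion genes, marker lists and tests were chosen with earlier results of these data known. Alternatives covered scaling, filter, test, unwanted variation (RUVr), replicate block, summing of IDs, a length trend, transcript length, pseudocount (0.5 or 1), and leaving out each sample. Protein sequences were not used here.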

Additional observations from a re-analysis of the deposited data

How the results depend on the processing

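Counts of receptor subunits called between the sexes stayed at 0 except without the filter on low counts (1, with 276 of 23485 IDs called in all) and in DESeq2 with 1 RUVr factor (1 of the 13 with an adjusted p, with 348 of 8966 in all), Gria2 in each case. DESeq2 alone gave 16 of the 19 no adjusted p. Those at unadjusted p under 0.05 numbered 2, or 1 with the length trend removed (9.25% of all IDs), 0 to 2 when a sample was left out (5.61% to 16.1% of all IDs), and 0 of 10 when restricted to genes with 1 curated accession (13.8% of all such mRNA IDs), an alternative chosen after seeing the data. The 0 without overlap became 2 (Grik3 and Glra3) in CPM of library totals, where 18.1% of all tested IDs did not overlap, and 1 to 6 with a sample left out, where 23.2% to 36.6% did not. Companion genes at unadjusted p under 0.05 numbered 3, 7 in edgeR with 1 RUVr factor (of 42, where 17.8% of all IDs passed), 2 in DESeq2 without (10.7%) and with that factor (14.2%), 4 with IDs of a gene summed (11.8%), and 0 to 5 with a sample left out (5.61% to 16.1%). The median log2 fold change of the receptor subunits, -0.17, ran from -0.19 with the replicate block to -0.04 without female sample 2. It was -0.06 with the length trend removed, against -0.02 over all IDs.

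Of the named fold changes, that of Grik3 became 0.00902 with the length trend removed. Grin2a ran from -0.36 to 0.12 with a sample left out. Grin2d was -0.011 with 10 or more counts required in every sample, -0.00639 in DESeq2 with 1 RUVr factor, and -0.13 to 0.21 with a sample left out. The Grin2b to Grin2a difference ran from -0.47 to -0.02 and the Grin2d to Grin2c difference from -0.10 to 0.48 with a sample left out. The log2 ratio of embryonic to mature levels, 2.94, was 2.70 with the median transcript length and 1.28 for genes with 1 accession. The median level over receptor genes was 0.868 CPM per kb and 2.07 for genes with 1 accession. The cause of these shifts was not tested.

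Replicate numbers were shared by the sexes in the labels, but samples of the same number did not deviate together (correlations -0.29, -0.06 and -0.20), so no pairing was assumed. With the replicate block, 0 receptor subunits were called (4 of all 13374 IDs), and 2 of 19 and 1 of 42 companion IDs had an unadjusted p under 0.05, against 8.41% of all IDs. Ratios of Grin3a to Grin3b and of Gabra5 to Gabra6 were not run, because Grin3a had at most 2 counts per sample, Gabra5 had 1 count in all and Gabra6 matched no ID.

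The 10 untested IDs had fewer than 10 counts in each sample, and the part of depth in this was not tested. Of all mRNA IDs, 74.0% were tested for genes with 1 accession and 42.6% for genes with 2 or more. For genes with several accessions, how shared reads were counted is not stated in the sources used here.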
